A study of Curcuma longa with 2 samples.

Results

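The miR482/miR2118 superfamily was described in small RNA of nanoparticles prepared from turmeric (Curcuma longa) root. Its members were 6 distinct sequences of the 167 with reads in the deposited table, standing on 7 of its 266 lines. They were taken by name, where an entry was named miR482 or miR2118 of any species, and 1 predicted entry without a registered name, PC-3p-100_7893, was added because it contains the named miR482 sequences and lies on the same hairpin. The predicted entry was chosen by its high share of reads in these same libraries as well as by its sequence, so shares and ranks here are a description without a test. The samples are labelled Turmeric ELN 1 and 2 and are called library 1 and library 2. They form 1 group with no control, no second condition and no cells. The labels do not say whether they are separate preparations, so their spread, and any difference between them, may reflect technical variation alone. No p-value given here is computed from that spread. The labels give no purity measure of the particles, and RNA inside them cannot be told apart from RNA that came along in the preparation. Listed reads totalled 96386 in library 1 and 72196 in library 2, which is the size of a miRNA list and not the sequencing depth.

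MicroRNAs of the miR482/miR2118 superfamily pair with the transcript stretch that encodes the P-loop of NBS-LRR proteins, the largest class of intracellular disease resistance receptors in plants. Most are 22 nt long, and a 22-nt miRNA, unlike the usual 21-nt kind, can lead to the copying of a cleaved target into double-stranded RNA and its dicing into phased secondary siRNAs. In grasses, miR2118 also acts on long non-coding RNAs in the anther. The mature miRNA usually comes from the 3′ arm of its hairpin.

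The sequences that carry the results are printed 5′ to 3′ as DNA letters, with bases 2 to 8 in capitals, the seed that pairs first with a target. The first 3 are the turmeric miR482 forms, which share 1 seed and 1 first base and differ only in where the 3′ end lies. The next 3 are the entries named miR2118. The last 2 are the registered cotton (Gossypium raimondii) miR482 and rice miR2118e sequences quoted in the deposited table, shown for comparison.
miR482 22-nt form: cTTCCAATtcctcccattccga
miR482 21-nt form: cTTCCAATtcctcccattccg
miR482 20-nt form: cTTCCAATtcctcccattcc
miR2118-named 20-nt entry: gAAAAGAGagtcaaagagta
miR2118-named 19-nt entry a: gAAAAGAGagtcaaagagt
miR2118-named 19-nt entry b: aAAAGAGAgtcaaagagta
Registered cotton miR482: tCTTTCCAattcctcccattcc
Registered rice miR2118e: tTCCCAATgcctcccatgccta

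The 22-nt form made up nearly all reads of the superfamily. It is the one member without a registered name by the way members were taken, since it alone was added as a predicted entry. It had 4176 reads in library 1 and 3800 in library 2. The 21-nt form, named gra-miR482 with 2 bases missing at the 5′ end, 1 added at the 3′ end and 1 substitution, had 293.5 and 222.5 reads. The 20-nt form, which carries the same name without the added base, had 74.5 and 43.5 reads. The fall in reads from 22 to 21 to 20 nt was seen in both libraries, and the values of these forms did not overlap between lengths. Of the reads on these 3 forms, the 22-nt form held 91.9% in library 1 (exact Clopper-Pearson 95% interval 91.1% to 92.7%) and 93.5% in library 2 (92.7% to 94.2%). The 21-nt form held 6.46% and 5.47%, and the 20-nt form 1.64% and 1.07%.

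The 22-nt form exceeded the 21-nt form 14.2-fold in library 1 and 17.1-fold in library 2, a mean log2 ratio of 3.96 ± 0.19 (SD, n = 2). The 21-nt form exceeded the 20-nt form 3.94-fold and 5.11-fold, a mean log2 ratio of 2.17 ± 0.27 (SD, n = 2). These ratios compare sequences within a library, and with 2 libraries a two-sided exact sign-flip permutation test cannot give a p below 0.5, so none is attached. The counts of the shorter forms are fractional on a single line each, while their sum is whole in both libraries, at 368 and 266 reads. As 293.5, 222.5, 74.5 and 43.5 all have the same fraction, such sums are whole in any case. The 21- and 20-nt forms may divide reads between them, which was not tested. Their separate values are taken as less certain than their sum, which the 22-nt form exceeded 11.3-fold and 14.3-fold. Because the table reports 1 best-scoring read for each cluster, a value may also include reads of close variants.

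**Figure D1:**
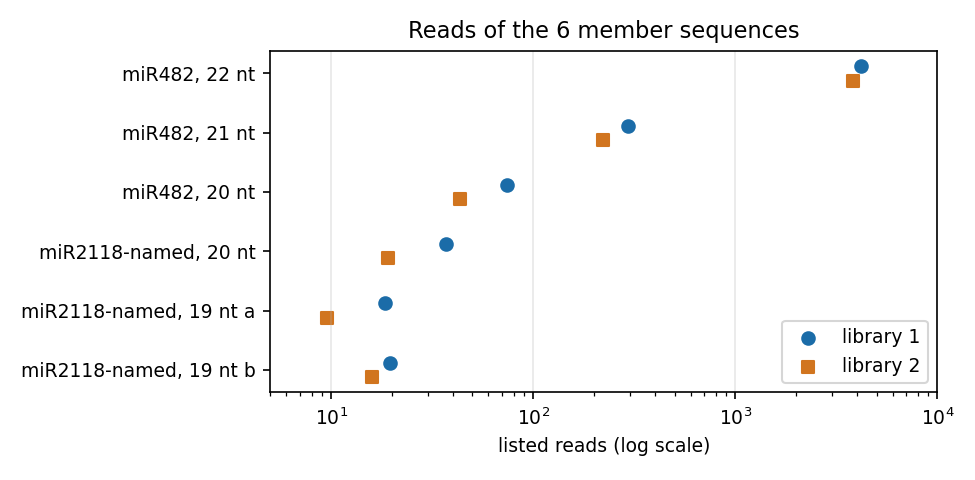
Listed reads (horizontal log axis) of each of the 6 member sequences in library 1 (circles) and library 2 (squares). The 22-nt miR482 form stands at 4176 and 3800 reads, against 293.5 and 222.5 for the 21-nt form and 37 reads or fewer for each miR2118-named entry.

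As a share of all listed reads, the 22-nt form held 4.80% ± 0.66 (SD, n = 2), the 21-nt form 0.31% ± 0.0026 and the 20-nt form 0.069% ± 0.012 (SD, n = 2 each). All 6 members together held 4.79% of the reads in library 1 (95% interval 4.66% to 4.93%) and 5.69% in library 2 (5.52% to 5.86%). The 5 members with a registered name held 0.46% (0.42% to 0.50%) and 0.43% (0.38% to 0.48%). Each interval is computed within 1 library, so it allows for counting error alone and leaves out variation between libraries. It is too narrow where reads, which lack molecular identifiers, are copies of 1 molecule.

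By mean share the 22-nt form ranked 8th of the 167 sequences. It was lower in both libraries than the miR319 sequence tae-miR319_1ss20CT, at 6.12% ± 0.19, and peu-MIR2916-p5_1ss6AG, at 5.43% ± 0.33 (SD, n = 2 each). miR319 acts on TCP transcription factor genes, and miR2916 is a registered entry proposed to be a ribosomal RNA fragment. The order against the next 3 neighbours, peu-miR2916_R-3_1ss6AG at 5.24%, the miR156 sequence sbi-miR156a_L+1 at 4.44% and the miR166 sequence osa-miR166a-3p at 4.41%, turned between the libraries. Library 1 placed the 22-nt form below all 3 of them and library 2 above all 3. It stood above aof-miR319b_2ss20CT21TA, at 4.22% ± 0.094 (SD, n = 2), in both libraries. These places rest on reads summed over lines. With a single line's value for each sequence the 22-nt form held 7.10%, and its rank in that setting is not given.

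The miR482 forms were set against the registered sequences base by base. Cotton miR482 is also 22 nt long, but the turmeric form begins at its position 3 and runs 2 bases past its 3′ end. Over the 20 bases in common, 19 are identical and 1 differs, T3C (the registered base first, counted from 1 at the 5′ end of the registered sequence). Against rice miR2118e the best match needs no shift: both are 22 nt and start at the same place, with 17 of 22 bases identical and the differences T1C, C3T, G9T, G18T and T21G. The turmeric form thus has the closer base match with cotton miR482 and the same start as rice miR2118e. Its seed, TTCCAAT, was found in the 3 miR482 forms and in none of the other sequences with reads. The seeds of the 2 registered sequences, CTTTCCA and TCCCAAT, were found in no sequence with reads.

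The forms lie on 2 hairpins, called hairpin A and hairpin B. The listed form of each is printed in capitals with the 12 bases on either side of it, because the bases just after the form tell the hairpins apart.
Hairpin A, 3′ arm: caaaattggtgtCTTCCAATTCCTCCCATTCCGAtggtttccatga
Hairpin B, 3′ arm: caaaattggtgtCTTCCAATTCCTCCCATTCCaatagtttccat

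Hairpin A is 159 nt long and was placed by the authors on contig WXZB01370281.1, from 35 to 193 on the plus strand. Hairpin B is 173 nt long and was placed on contig WXZB01075556.1, from 30893583 to 30893755 on the minus strand. The sources used here do not name the assembly or any gene at these places. The 22-nt form spans bases 121 to 142 of hairpin A and the 20-nt form bases 113 to 132 of hairpin B. The table lists both on the 3′ arm. In the deposited structure of hairpin B, bases 113 and 114 pair with bases 97 and 96 in a side stem, not with the 5′ arm. The table credits hairpin A to 8 registered MIR482 hairpins through its 21-nt form and to none through its 22-nt form, and hairpin B to 1.

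The 22- and 21-nt forms occur in hairpin A and not in hairpin B, which carries G21A relative to the 22-nt form (counted from its 5′ end). The 20-nt form ends just before that base and occurs in both hairpins, so its 74.5 and 43.5 reads cannot be assigned to hairpin B although they are listed there. Hence no listed miR482 read requires hairpin B as its source. In a global alignment of the hairpins, 110 of 206 columns (53.4%) were identical. Over the bases of the mature form, 21 of 22 were the same. Hairpin A was identical to the registered cotton hairpin at 44.2% of aligned columns and hairpin B at 60.9%.

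In the deposited structure of hairpin A, 18 of the 22 bases of the mature form were paired, all with the 5′ arm, and the unpaired bases were 1, 8, 9 and 11. No other listed sequence lies in either hairpin, so neither had reads on its 5′ arm in the entries used here. Of 203 genome-placed hairpins with reads, 26 (12.8%) had reads listed on both arms. The folding free energy was -66.5 kcal/mol for hairpin A and -82.8 kcal/mol for hairpin B. The median was -45.05 over 222 distinct hairpins of the table, which had a median length of 104 nt. Over the 23 hairpins of predicted entries it was -66.3, with a median length of 147 nt. The free energy index, which scales that energy by length and GC content, was 0.9 for both hairpin A and hairpin B. Its median was 0.8 over the 222 hairpins and 1 over the 23, where it ranged from 0.9 to 1.8.

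**Figure D2:**
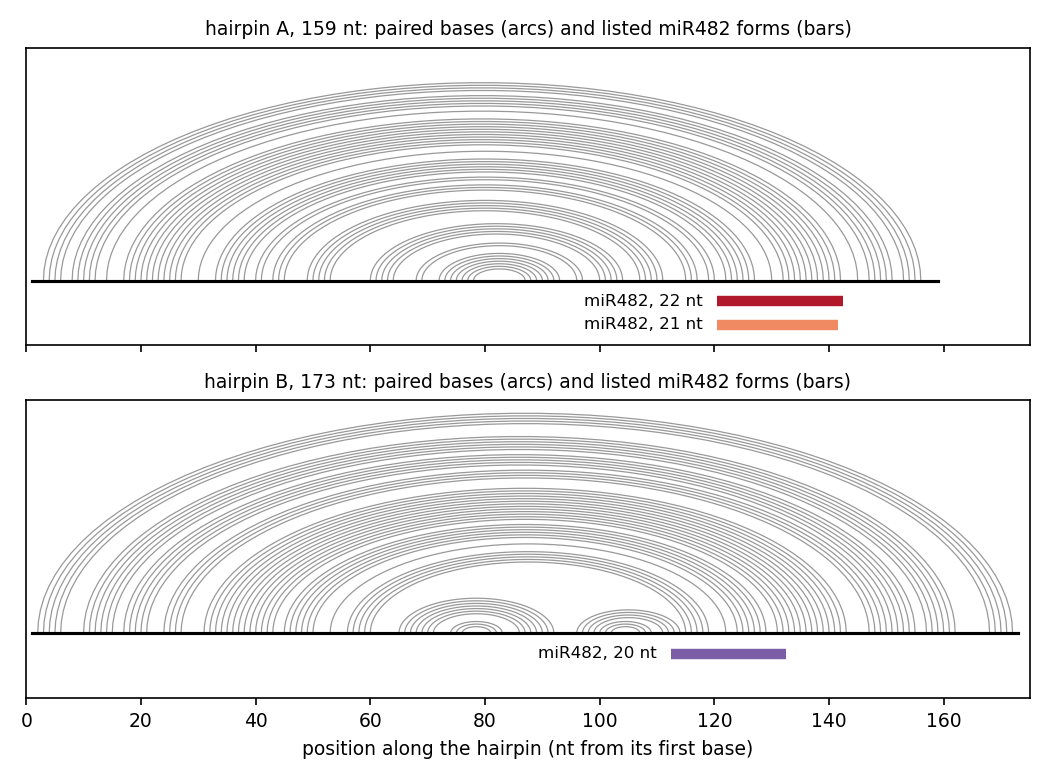
Base pairs of the deposited structures (arcs) along hairpin A (159 nt) and hairpin B (173 nt), with position from the first base on the horizontal axis and bars for the forms listed on each. The 22-nt form covers bases 121 to 142 of hairpin A and the 20-nt form bases 113 to 132 of hairpin B. Both are listed on the 3′ arm, and the 20-nt form also occurs in hairpin A.

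Length set the 22-nt form apart from most of the list, but it was chosen partly by its high share of reads, so its lead is a description. Of the 13 sequences of 22 nt with reads, it held 88.1% of their reads in library 1 (95% interval 87.1% to 89.0%) and 90.2% in library 2 (89.3% to 91.1%). The next was osa-miR167d-5p_R+1, of the miR167 family that acts on auxin response factor genes, with 184 and 145 reads. It was followed by gma-MIR5368-p3_1ss17CA with 122 and 53 reads. The other 12 sequences together had 565 and 412.5 reads. All listed 22-nt reads were 4.92% and 5.83% of the libraries, and 0.59% and 0.57% without the miR482 form.

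**Figure D3:**
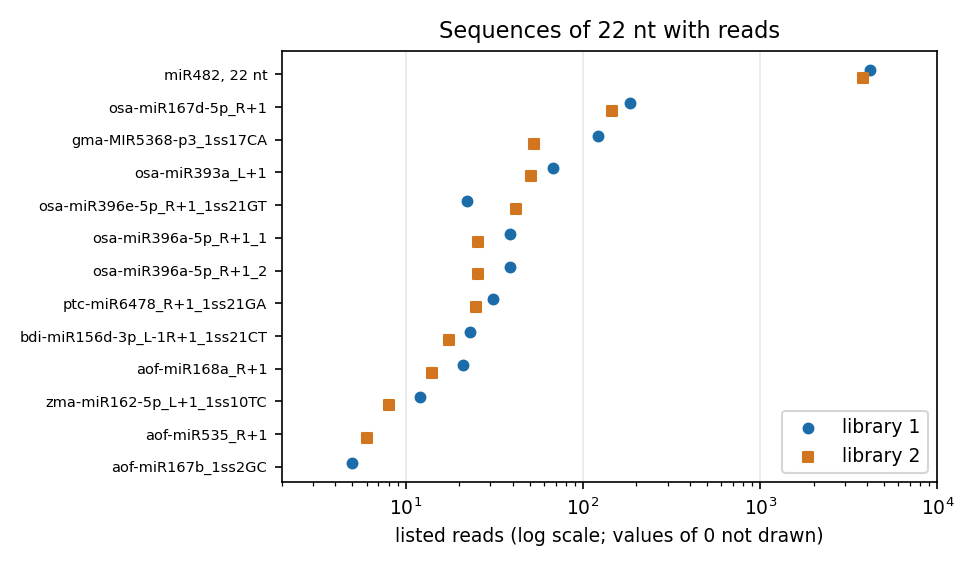
Listed reads (horizontal log axis) of the 13 sequences of 22 nt in library 1 (circles) and library 2 (squares), named as in the deposited table. The miR482 form lies at 4176 and 3800 reads, and the next sequence, of miR167, at 184 and 145.

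Families were then compared by the share of their own reads at 22 nt. Of 31 families with at least 100 reads over both libraries, 21 had no 22-nt read. The miR2118-named entries, themselves members, are counted as 1 family among those 21. Entries treated as fragment-like below fall on both sides: miR2916 had no 22-nt read, while miR5368 and miR6478 had some. The miR482 forms, with the predicted form counted in, stood at 91.9% in library 1 and 93.5% in library 2. Only miR393, which acts on auxin receptor genes and had a single sequence with 68 and 51 reads, was higher, at 100% in both libraries. miR167 followed at 56.8% and 59.4%, miR5368 at 29.1% and 19.3%, and miR6478 at 21.5% and 21.2%. Without the predicted form, miR482 would have no 22-nt read, so its place rests on that 1 sequence. Predicted entries were not assigned to the other families.

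**Figure D4:**
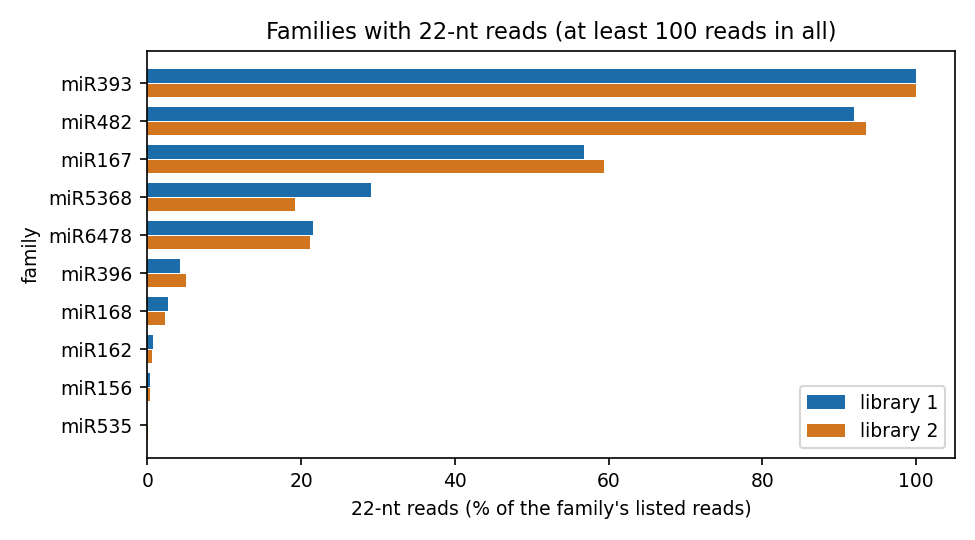
Reads of 22 nt as percent of each family's own listed reads, in library 1 and library 2, for the 10 families that had any among 31 with at least 100 reads. miR482 lies at 91.9% and 93.5%, between miR393 at 100% and miR167 at 56.8% and 59.4%.

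The first base was C in all 3 miR482 forms, where most plant miRNAs begin with U, the base favoured by AGO1 in Arabidopsis. The 3 forms share 1 5′ end, so they count as 1 observation of the first base. They held 53.3% of the reads that begin with C in library 1 and 57.1% in library 2, through 3 of 41 such sequences. Of the reads on the 3 forms, 91.9% and 93.5% were those of the 22-nt form, which was chosen partly by its high share. Their lead is therefore a description. Next among the sequences that begin with C came bdi-MIR319a-p5, with 918.5 and 715 reads. Reads beginning with C were 8.84% and 9.86% of the libraries, and 4.12% and 4.23% without the miR482 forms.

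Among the entries that the authors predicted without a registered name, the 22-nt form held 85.3% and 85.1% of the reads of the 19 predicted sequences. It was chosen partly by its high share of reads, so this lead is a description alone. The second, PC-3p-5630_254, had 152 and 102 reads. Of these 19, only the 22-nt form and PC-3p-5630_254 contain a sequence that the table lists under a registered name. PC-3p-5630_254 is 23 nt long and contains a 21-nt miR156 sequence, osa-MIR156i-p3, with 90 and 97 reads, and a 22-nt one with 23 and 17.5 reads. There the predicted form and the leading named form were closer, at 152 against 90 reads and 102 against 97.

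The 3 entries named miR2118 shared little with the miR482 forms. They are overlapping windows of 1 stretch, offset by a single base at either end, and their values are low. The 20-nt entry had 37 reads in library 1 and 19 in library 2, the sum of 2 lines with 18.5 and 9.5 each. The 19-nt entry a had 18.5 and 9.5 reads, the same as each of those lines, so they may share reads. The 19-nt entry b had 19.5 and 16 reads. All 3 were lower than any miR482 form in both libraries. With its lines summed, the 20-nt entry was above entry b in both libraries, by 1.90-fold and 1.19-fold, but a single line of it, at 18.5 and 9.5 reads, was below entry b in both, so their order is not settled. Entries b and a did not differ beyond their spread, with a mean log2 ratio of 0.41 ± 0.48 (SD, n = 2). Together the entries held 0.078% and 0.062% of the listed reads, and 16.9% and 14.3% of those of the named members.

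None of the 3 corresponds to a mature miR2118. Each was matched, with 2 substitutions, to the rice miR2118e hairpin, at bases 20 to 39 for the 20-nt entry, where the registered miRNA occupies bases 121 to 142 of 177. The 20-nt entry carries T13A and C19T, counted from its own 5′ end with the rice base first. In the rice hairpin the matched bases thus lie upstream of the registered miRNA. The table names the entries p3 and lists them on the 3′ arm of their turmeric stretches, where each entry ends at the last base. The longest run of bases that any of them shares with the registered rice miR2118e is 3, while the miR482 22-nt form shares a run of 8.

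Their folds also differed from those of the miR482 hairpins. Entries a and b stand on stretches of 28 and 29 nt with free energies of -5 and -5.6 kcal/mol. The 20-nt entry stands on a stretch of 29 nt at -5 kcal/mol and on one of 172 nt at -51.7 kcal/mol, at the very end of both. In each of these 4 stretches, 6 bases of the entry were paired. The criteria that the table states for hairpins ask for a free energy of -15 kcal/mol or lower, a length of at least 50 nt and at least 12 paired bases in the mature part. The free energy and length criteria were both missed by 40 of the 222 distinct hairpins of the table, among them 3 of these 4. The stretch of 172 nt also carries an entry named miR2592, with 12 and 8.5 reads. Whether the miR2118-named entries come from another kind of RNA was not tested.

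The 2 libraries were compared for each member with a two-sided exact binomial test on rounded reads, adjusted by Benjamini-Hochberg over the 153 sequences with at least 10 reads in all. The test compares the reads of 2 libraries of 1 group, not conditions, and its p-values, like the intervals, allow for counting error alone and are too small where reads are copies of 1 molecule. Of the 6 members, 1 passed at 0.05, where 20 of all 153 sequences (13.1%) did, 10 (6.54%) of them higher in library 2. The 22-nt form held 4.33% of the reads in library 1 (95% interval 4.20% to 4.46%) and 5.26% in library 2 (5.10% to 5.43%). It was 1.21-fold higher in library 2 (log2 ratio 0.28, adjusted p = 2.37e-16, exact binomial). The median difference in either direction, over the 148 tested sequences with reads in both libraries, was 1.16-fold.

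The other members did not pass. The 21-nt form held 0.30% and 0.31%, a log2 ratio of library 2 over library 1 of 0.017 (exact binomial, adjusted p = 1). The 20-nt form held 0.077% and 0.060%, a log2 ratio of -0.36 (exact binomial, adjusted p = 0.697). The miR2118-named entries had log2 ratios of -0.54 for the 20-nt entry and for entry a, and 0.13 for entry b (exact binomial, adjusted p = 0.623, 0.901 and 1). A p above the threshold does not show that their shares are equal. Over the members the median log2 ratio was -0.17, against 0.0019 over those 148 sequences. That median treats as separate the miR2118-named entries, which overlap in sequence and may share reads. Summed over all 6 members, the share was higher in library 2, at 5.69% against 4.79% in library 1. Whether the shorter forms differ from the 22-nt form in their ratio between libraries was not tested.

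**Figure D5:**
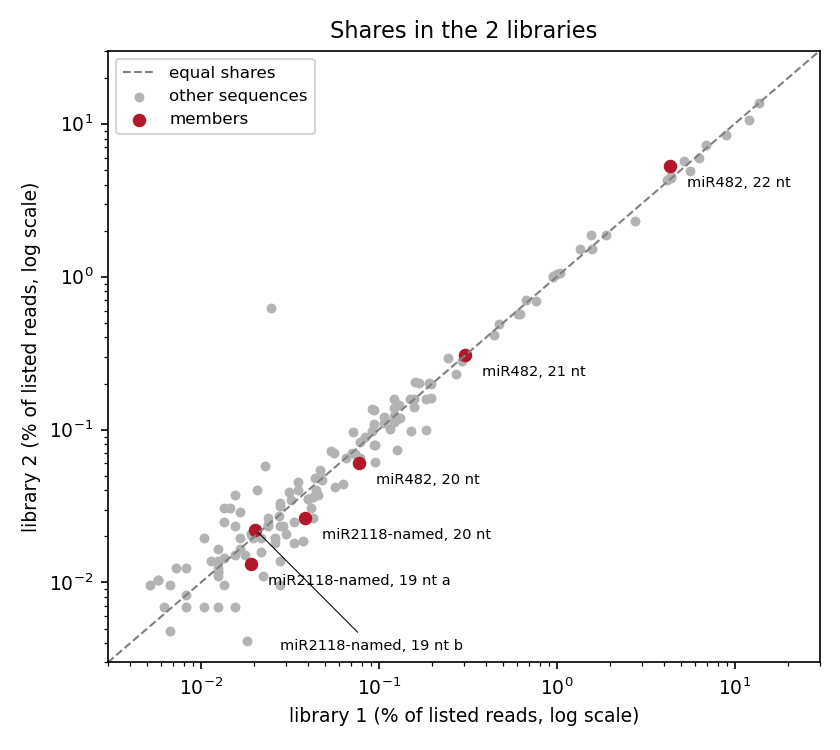
Share of listed reads in library 1 (horizontal log axis) and library 2 (vertical log axis) for tested sequences with reads in both libraries, with members in red and the line of equal shares dashed. The 22-nt miR482 form lies above the line, at 4.33% and 5.26%, and the 21-nt form on it, at 0.30% and 0.31%.

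The members were last placed among families of related function. Of 10 families known to act on NBS-LRR resistance genes in various plants, 2 had reads, under the names miR482 and miR2118. These 2 are the members themselves, and the list was chosen with their reads known, so the count does not single them out. For the other 8, among them miR472, miR1507 and miR2109, the entries used here hold no reads. Whether turmeric has these 8 families was not tested. Of 11 families known to lead to phased secondary siRNAs, 5 names had reads, miR2118 again by the entries that are not the mature miRNA. Besides miR482 these were miR393 with 68 and 51 reads, miR828, which acts on TAS4 and MYB transcripts, with 14 and 22, and the name miR858 with 111 and 73. The miR393 entry is 22 nt long, while the miR828 and miR858 entries are not. The miR858 reads lie on ath-MIR858a-p3_2ss4GA20TC, an arm without a registered miRNA matched with 2 substitutions, so they rest on the hairpin's name. In both libraries each of these entries had fewer reads than the 22-nt miR482 form, which was chosen partly by its high share. miR2275, which acts with miR2118 in grass anthers, and miR390, a trigger at TAS3 transcripts, were without reads in these entries. Of 3 families that act on the silencing machinery itself, 2 had reads and miR403 had none in these entries. Of the former, miR162, a regulator of the Dicer gene DCL1, held 1.73% ± 0.23 and miR168, a regulator of AGO1, 0.82% ± 0.022 (SD, n = 2 each). Each was below the 22-nt miR482 form in both libraries. The list may have a minimum, since its smallest value above 0 was 2.5 reads, so no upper limit is given for a family without reads.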

How the data were processed

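Per the labels' protocols, small RNA libraries were made from total RNA and sequenced on an Illumina platform. CASAVA 1.8.4 and cutadapt 1.10 were used, per the submitters' processing notes, which give no role. Reads were compared with miRBase entries and a genome, and those without a registered match were tested for genomic hairpins, per the file headers. No source used here gives the miRBase release, the aligner or the assembly. The authors deposited an expected count of raw reads per line and a normalized signal, which by the values is that count times 0.508 (library 1) or 0.923 (library 2). The deposited free energy and free energy index are the authors' hairpin scores.

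Of 278 lines, 12 carry no entry and were not analysed here. 2 value columns match no sample of this series and were not used. Reads were summed over lines with the same sequence, and fractional sums were rounded for intervals and tests (scipy 1.17.1). Sums were called whole within 1e-06. Hairpins were aligned globally with Biopython 1.88 (match 1, mismatch -1, gap opening -3, extension -0.5) and refolded with ViennaRNA 2.7.2. One sequence was placed above another where its share was larger in each library and the log2 ratio averaged more than its SD. All members were named, with the 3 entries ranked next above and below the leading one and the families of 3 lists. Entries of the same hairpin, and the leading entries by length, first base and prediction, were chosen after their values were seen. The members and lists were chosen with earlier results of these data known.

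The hairpins are not printed whole, and 1 stretch of their sequence is not reported here.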

Additional observations from a re-analysis of the deposited data

How the results depend on the processing

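Using a single line's value in place of the sum over lines, the members held 7.73%, the named members 0.635% and the 22-nt form 93.0% of the 22-nt reads, and 12 sequences differed between the libraries in place of 20. The listed total is smaller in that setting by construction. Without fragment-like entries (miR2916, miR5368 and miR6478) the members held 6.42% and the named members 0.545%, and without the most abundant sequence the members held 6.08%. Among registered names only, the named members held 0.471%. Chosen after seeing the data, leaving out the miR2118-named entries gave 0.375% for the named members, and the 22-nt form exceeded both shorter forms together 12.8-fold (mean of the 2 libraries), against 15.7-fold for the 21-nt form alone. With single lines, the miR2118-named 20-nt entry (0.024%) lay below entry b (0.031%), opposite to the sums. These follow from the denominators and sequences used. Single libraries gave 4.79% to 5.69% for the members, 0.430% to 0.460% for the named members, 14.2 to 17.1 for the ratio of the 22- to the 21-nt form and 88.1% to 90.2% for its share of 22-nt reads. The 22-nt form passed the test between the libraries, higher in library 2, under each filter and scaling tried, with log2 ratios from 0.25 to 0.28 and adjusted p from 2.59e-16 to 6.23e-13 (exact binomial), and no other member passed. Refolding hairpin A, also added later, paired 20 of the 22 bases of the mature form in place of 18. No paired analysis was possible because both libraries belong to a single group. The depth of the libraries is unknown, which limits what is said of entries without reads.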
